A study of Rattus rattus with 24 samples.

Results

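Oligodendrocyte precursor cell (OPC) cultures kept in T3 (triiodothyronine, the active thyroid hormone) for 96 hours were compared with T3 cultures of the same preparations at 48 hours, gene by gene. The cultures were chosen by their labels alone, as the T3 arrays of both times, and gave 6 of the 24 arrays of the series, 3 at each time. T3 96-hour and T3 48-hour cultures both received 45 nM T3. The other arrays held T3 plus quetiapine (1 µM), quetiapine alone and a control that received neither compound, again at both times, and 6 control arrays gave the change with time without added T3. The cells came from the cerebral cortices of rat pups, were selected with A2B5 beads and expanded in PDGF, a growth factor for precursors, before treatment. PDGF is not named among the components of the treatment medium in the labels. All groups, control included, were grown with a B27 supplement that itself holds a little T3. The wells were given fresh medium with the same compounds on the second day, and the order of that change and the 48-hour harvest was not given. The 3 replicates were described as biological, and the same replicate number in different groups was taken as the same cell preparation.

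Oligodendrocytes make the myelin sheath of the central nervous system. A precursor first leaves the cell cycle, passes through a premyelinating stage in which early myelin genes are already expressed, and then turns on genes of the mature cell. T3 binds nuclear thyroid hormone receptors that activate or repress target genes, and in precursor cultures it is used as a standard inducer of differentiation. Some receptor targets, such as Klf9 and Hr, respond directly, and genes of the mature oligodendrocyte follow later.

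RNA was measured on a 1-colour Affymetrix rat array. Values are log2 expression after the authors' RMA, so a difference of 1 is a doubling, and levels are comparable between arrays for a probe set but not between genes. Within T3 96-hour and T3 48-hour cultures the arrays correlated with Pearson's r of 0.989 to 0.996 over probe sets, a count of features and not of replicates. Over the 6 T3 arrays the defining markers of the labelled cells ranged from 13.05 to 13.36 for Olig1, from 10.86 to 11.48 for Sox10 and from 11.35 to 12.36 for Pdgfra. Among astrocyte markers Gfap ranged from 12.95 to 13.77, Aqp4 from 11.45 to 12.86 and Aldh1l1 from 8.36 to 10.08. Among microglia markers Aif1 ranged from 6.13 to 6.34, Csf1r from 4.49 to 5.95 and Cx3cr1 from 6.01 to 6.35. Among neuron markers Rbfox3 ranged from 6.60 to 7.36, Snap25 from 7.99 to 8.85 and Syt1 from 5.27 to 5.70. Among vascular and fibroblast markers Pecam1 ranged from 3.41 to 3.68, Cldn5 from 4.10 to 4.35, Col1a1 from 5.71 to 6.34 and Col3a1 from 4.27 to 4.49. No detection calls were used here, so the presence or absence of a transcript was not read from these levels. In a bulk culture, fewer cells of a type and less RNA per cell cannot be told apart. For beta-actin, the 3′ signal minus the 5′ signal, a measure of RNA integrity, was higher at 96 hours than at 48 hours by 0.068, 0.122 and 0.144 in the 3 replicates, and its part in the results was not tested.

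Between 48 and 96 hours, 19 of 26 genes of myelin and the mature oligodendrocyte rose in T3 cultures, some steeply. Cell cycle genes fell more modestly. Limma was fitted to all 24 arrays with the group means and the replicate as terms, and Benjamini-Hochberg adjustment covered all 31042 probe sets. With calls at a fold over 1.5 and an adjusted p under 0.05, 939 probe sets were higher (3.02% of those tested) and 583 were lower (1.88%) at 96 hours. The rises were larger. Of the called probe sets, 92 rose over 4-fold and 0 fell over 4-fold, while 432 rose and 92 fell over 2-fold. The largest called rise was 6.53 on the log2 scale and the largest called fall −1.64, against a median change of −0.01 over all probe sets. Without replicate 2 the same limits gave 291 higher and 100 lower, and without the replicate term they gave 533 higher and 271 lower. Single changes are given below at an adjusted p under 0.05 with no fold limit, a rule that called 2182 probe sets higher (7.03%) and 3744 lower (12.1%). The counts of list members below are to be read beside these shares. By the values alone, 3095 probe sets (9.97%) had all 3 values at 96 hours above all 3 at 48 hours, and 4387 (14.1%) had all 3 below. Of the 131 changes named by the rule that passed the test, all kept their direction in each fit that left out an array or a replicate, while 113 passed without replicate 1, 34 without replicate 2, 86 without replicate 3 and 56 without the replicate term. When 1 T3 array was left out, the number that no longer passed was 49 for 96-hour replicate 2, 45 for 48-hour replicate 2, 30 for 96-hour replicate 3, 28 for 48-hour replicate 3, 20 for 96-hour replicate 1 and 23 for 48-hour replicate 1, and 74 passed in each of these fits.

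Genes of myelin and the mature oligodendrocyte gave the largest rises. Of 26 measured members of that list, 19 rose and 0 fell, with a median change of 1.65, where 7.03% of all probe sets rose. Without replicate 2, 8 of them rose. Mobp, which encodes a basic protein of compact myelin, had log2 values of 11.88, 13.15 and 13.43 at 96 hours, against 5.64, 5.26 and 7.97 at 48 hours. The largest rises and falls were named only where the groups did not overlap, as here. Replicate 3 was already ahead of the others at 48 hours. The change was 6.53 (SE 0.60, adjusted p = 2.02e-06), a 92.4-fold rise. Mal, a proteolipid of myelin membranes, stood at 7.43, 9.95 and 11.60 at 96 hours, against 5.40, 5.30 and 5.37 at 48 hours. At 48 hours the 3 replicates were nearly level, and at 96 hours replicate 1 lagged behind. The change was 4.31 (SE 0.81, adjusted p = 0.00128). Opalin, a transmembrane protein of oligodendrocytes, had the same spread, with 6.46, 8.79 and 10.18 at 96 hours, against 4.71, 4.61 and 4.74 at 48 hours, and a change of 3.79 (SE 0.71, adjusted p = 0.00121). Ermn, a cytoskeletal protein of the oligodendrocyte, reached 6.62, 8.41 and 9.23 at 96 hours, against 4.33, 4.000 and 4.38 at 48 hours, a change of 3.85 (SE 0.49, adjusted p = 4.74e-05). In Ermn, too, replicate 1 was the lowest at 96 hours, and the groups did not overlap, as the rule required.

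**Figure D1:**
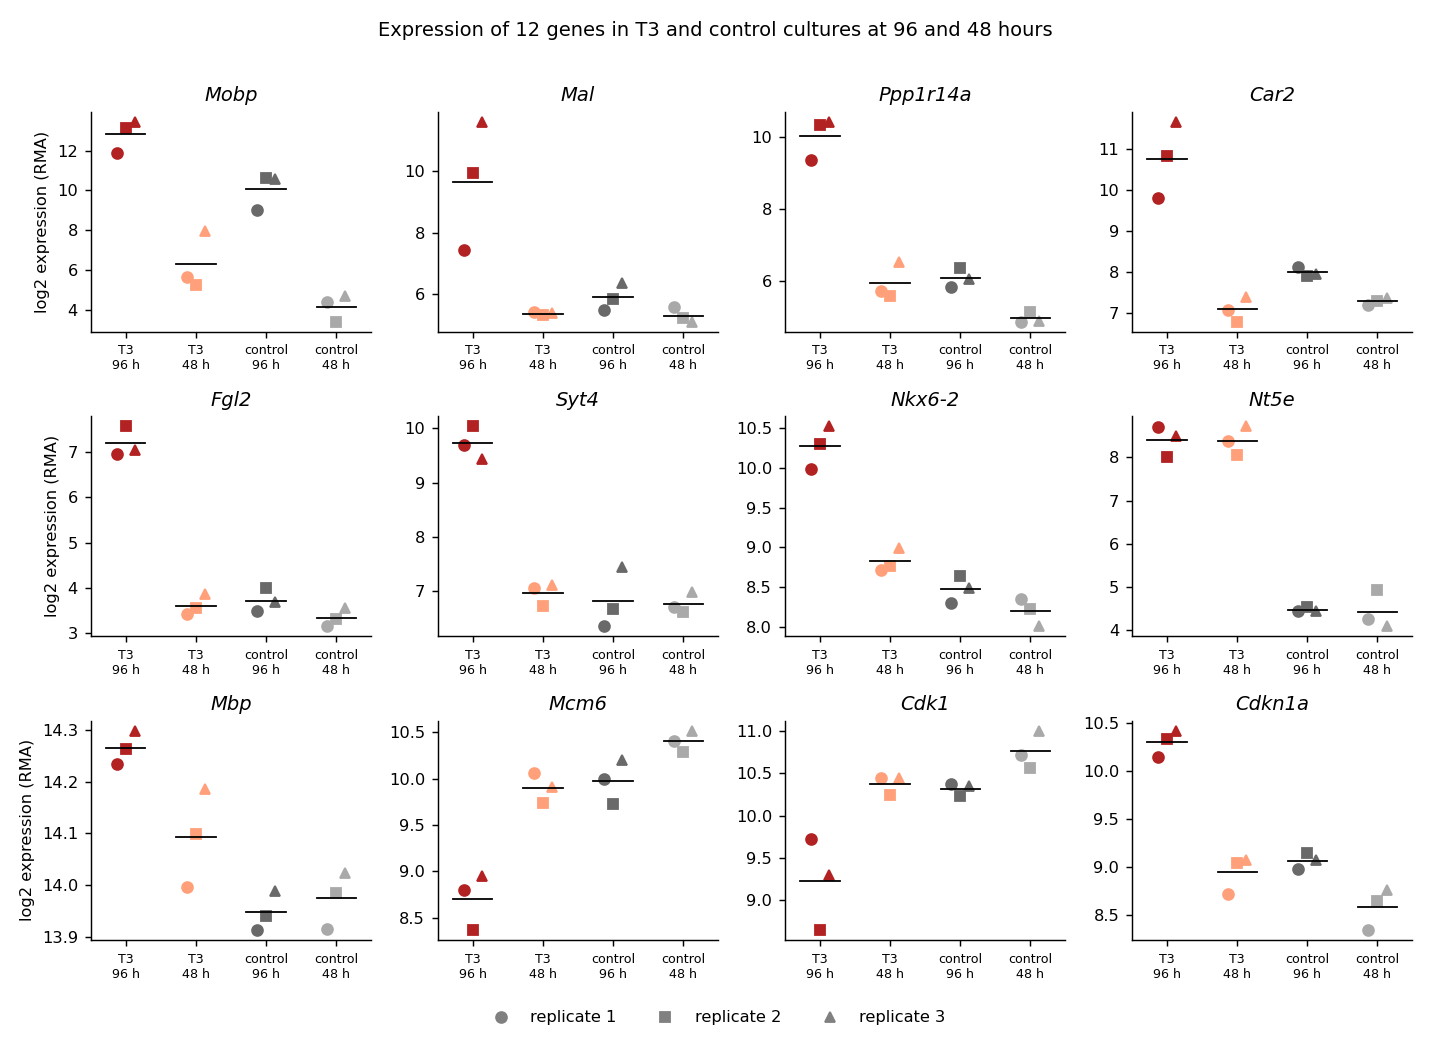
Log2 expression (RMA) of 12 genes on each array of T3 96-hour, T3 48-hour, control 96-hour and control 48-hour cultures. Symbols mark the replicate and lines the group means; Mobp, Mal and Car2 were higher at 96 hours in all 3 T3 replicates, Mcm6 and Cdk1 lower, and Nt5e overlapped between the times.

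Further members of the list rose in step. Ppp1r14a, an inhibitor of myosin phosphatase, had 9.37, 10.32 and 10.41 at 96 hours, against 5.70, 5.57 and 6.53 at 48 hours, a change of 4.10 (SE 0.37, adjusted p = 1.73e-06). Gpr37, a G protein-coupled receptor of myelinating cells, changed by 3.93 (SE 0.37, adjusted p = 2.18e-06), and Car2, a carbonic anhydrase of oligodendrocytes, by 3.68 (SE 0.35, adjusted p = 2.41e-06). Mog, a glycoprotein of the outer myelin surface, rose by 3.14 (adjusted p = 1.34e-05). Gjb1, a connexin of gap junctions, rose by 1.90 (adjusted p = 1.25e-05), and the small heat shock protein Cryab by 2.09 (adjusted p = 7.35e-04). Aspa, the enzyme that cleaves N-acetylaspartate, rose by 1.61 (adjusted p = 0.00788), and the actin-severing Gsn by 1.68 (adjusted p = 4.98e-05). Mag, an adhesion protein of the inner myelin surface, rose less, by 0.97 (adjusted p = 1.78e-04). The 7 members that did not pass all had changes above 0, and they included the early myelin genes Mbp (0.17, adjusted p = 0.0759), Cnp (0.07, adjusted p = 0.396) and Cldn11 (0.24, adjusted p = 0.0630).

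Mbp, which encodes myelin basic protein, had 14.23, 14.26 and 14.30 at 96 hours, against 13.997, 14.10 and 14.19 at 48 hours, so that its groups did not overlap although the change did not pass. One of its probe sets gave the highest value of the whole array on all 3 T3 arrays at 96 hours and on 1 at 48 hours, and those at 96 hours lay at 14.23 to 14.30. A second probe set of Mbp passed, with a change of 0.35 (adjusted p = 0.0337), and a dimmer one did not, with 0.06 (adjusted p = 0.933). The part of a ceiling in the signal was not tested.

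Rises of similar size came from genes outside the myelin list. Pls1, an actin-bundling plastin, had 9.63, 10.24 and 10.56 at 96 hours, against 5.70, 5.75 and 7.31 at 48 hours, a change of 3.89 (SE 0.25, adjusted p = 6.19e-08). Fgl2, a fibrinogen-like protein, had 6.96, 7.57 and 7.06 at 96 hours, against 3.41, 3.55 and 3.85 at 48 hours. The groups did not overlap, as the rule for the largest rises required, and the change was 3.59 (SE 0.28, adjusted p = 3.76e-07). At 48 hours the mean of this probe set lay above only 6.82% of all probe sets and was not shown to exceed background, so the size of its change is uncertain, and the 4 probe sets of Fgl2 changed by 1.08 to 3.59. Car14, a membrane-bound carbonic anhydrase, changed by 3.62 (SE 0.39, adjusted p = 7.95e-06), but by 1.90 (adjusted p = 2.31e-06) on a second, slightly brighter probe set. Kndc1, a guanine nucleotide exchange factor for Ras, changed by 3.98 (SE 0.67, adjusted p = 5.71e-04). Septin4, a GTP-binding protein of the cytoskeleton, changed by 3.54 (SE 0.48, adjusted p = 8.88e-05). In Car14, Kndc1 and Septin4 replicate 3 at 48 hours was the highest of its group, with 8.43, 9.01 and 10.45, while the other two replicates lay at 5.64 to 6.44, 5.58 to 6.02 and 7.67 to 8.43. Plekhh1, with FERM and pleckstrin domains, changed by 3.36 (SE 0.32, adjusted p = 2.31e-06), Cdc42ep2, an effector of the small GTPase Cdc42, by 3.31 (SE 0.31, adjusted p = 2.31e-06), and the cadherin Cdhr1 by 3.45 (SE 0.59, adjusted p = 5.87e-04). All 15 largest rises passed without each single array and without the replicate term. Without replicate 2 they were 11, and Mal (adjusted p = 0.123), Kndc1 (0.0909), Opalin (0.127) and Cdhr1 (0.0954) no longer passed.

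Of 14 measured genes that respond to thyroid hormone, 7 rose and 0 fell, with a median change of 0.40. In control 4 rose and 0 fell, and 0 of the 14 differed in their change between T3 and control by limma. At an unadjusted p under 0.05, 5 had a more positive change with T3 and 1 a more negative one, where 5.84% and 7.12% of all probe sets had. Those best known as early responders changed by 0.03 (Nt5e) to 0.54 (Klf9) after 48 hours with T3. Nt5e, an ecto-enzyme that makes adenosine, had 8.72, 8.01 and 8.502 at 96 hours, against 8.38, 8.05 and 8.72 at 48 hours. The groups overlapped and the change was 0.03 (95% interval −0.48 to 0.54, adjusted p = 0.961). Against control the same arrays gave 3.93 at 96 hours and 3.95 at 48 hours, which share the T3 arrays with the change above. The transcriptional corepressor Hr had 10.09, 10.12 and 10.15 at 96 hours, against 9.87, 9.89 and 9.88 at 48 hours, a small rise of 0.24 (SE 0.07, adjusted p = 0.0245). Its difference from control was 2.94 at 96 hours and 2.60 at 48 hours. The Krüppel-like factor Klf9 rose by 0.54 (SE 0.15, adjusted p = 0.0184) and the circadian factor Dbp by 0.28 (SE 0.10, adjusted p = 0.0476), both with overlapping groups. Their differences from control were 1.80 and 1.25 at 96 hours, against 1.94 and 1.58 at 48 hours. In control cultures Klf9 changed with time by 0.68 and Dbp by 0.61.

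Larger changes with time came from Rcan2, a regulator of calcineurin, with 9.48, 10.79 and 11.02 at 96 hours, against 7.01, 7.76 and 8.38 at 48 hours. The change of Rcan2 was 2.71 (SE 0.34, adjusted p = 4.02e-05). In control Rcan2 changed by 1.41, and the difference of the changes, 1.30, did not pass (adjusted p = 0.230). Dio3, the deiodinase that inactivates T3, had 8.28, 10.10 and 10.08 at 96 hours, against 6.57, 7.76 and 8.22 at 48 hours. Replicate 1 was the lowest at both times, all 3 replicates rose, and the change was 1.97 (SE 0.44, adjusted p = 0.00463). Aldh1a1, a retinaldehyde dehydrogenase, rose by 1.40 (SE 0.27, adjusted p = 0.00170) with overlapping groups, and Itih3, a hyaluronan-binding inhibitor chain, by 1.53 (SE 0.39, adjusted p = 0.00972). Itih3 rose by 0.30 in replicate 1 and by 1.92 and 2.37 in replicates 2 and 3. Of 13 measured receptors, transporters and deiodinases, 3 rose and 1 fell, and in the 9 fits without a T3 array or a replicate 0 to 2 rose and 0 to 1 fell. Beside Dio3 these were the transporter Slc16a10 (0.53, adjusted p = 0.00447), the receptor Thra (0.20, adjusted p = 0.0255) and the transporter Slco1c1 (−0.62, adjusted p = 0.0357). A second probe set of Thra went the other way, with −0.23 (adjusted p = 0.0285), so no direction can be given for that gene, and it was the 1 named gene of 60 with several probe sets where this happened. Without 1 T3 array, Thra no longer passed in 6 of 6 fits and Slco1c1 in 5 of 6. Of the 7 genes of the responsive list that rose, 2 passed without the replicate term and 1, Rcan2, without replicate 2 (adjusted p = 0.0175). Without 1 T3 array the adjusted p reached 0.0671 for Itih3, 0.102 for Klf9, 0.112 for Hr and 0.264 for Dbp.

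Most genes of the precursor and the premyelinating stage had negative changes, 18 of 20 and 10 of 13, but few passed. Of 20 measured precursor genes 2 fell and 0 rose (median −0.23), and of 13 premyelinating genes 3 fell and 0 rose (median −0.16), where 12.1% of all probe sets fell. At an unadjusted p under 0.05, 7 precursor genes were lower and 0 higher, and 6 premyelinating genes were lower and 1 higher. At that limit 19.0% of all probe sets were lower. Pdgfra, the receptor for PDGF, had 12.36, 11.57 and 11.35 at 96 hours, against 12.33, 12.09 and 12.20 at 48 hours, a change of −0.44 (adjusted p = 0.0818), and the proteoglycan Cspg4 one of −0.43 (adjusted p = 0.131). The members that fell were Sox11 (−0.57, adjusted p = 0.0215), a factor of immature cells, and Lingo1 (−0.46, adjusted p = 0.00225), a membrane protein known to restrain differentiation. Among premyelinating genes Itpr2, an intracellular calcium channel, changed by −0.44 (SE 0.09, adjusted p = 0.00301), Mpzl1 by −0.40 (SE 0.09, adjusted p = 0.00421) and the Wnt effector Tcf7l2 by −0.42 (SE 0.14, adjusted p = 0.0421). None of these 5 falls passed without replicate 2 or without the replicate term, and leaving out 1 T3 array took Sox11 and Tcf7l2 to adjusted p values of up to 0.107 and 0.161.

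Among 15 lineage transcription factors 4 rose and 2 fell (median −0.04), where 7.03% of all probe sets rose and 12.1% fell. The homeobox factor Nkx6-2 had 9.99, 10.30 and 10.52 at 96 hours, against 8.72, 8.77 and 8.99 at 48 hours. All values at 96 hours lay above those at 48 hours by about the same step, and the change was 1.45 (SE 0.16, adjusted p = 1.50e-05). Zfp536, a zinc finger repressor, had 10.89, 10.92 and 10.998 at 96 hours, against 8.93, 9.25 and 10.10 at 48 hours, a change of 1.51 (SE 0.21, adjusted p = 1.11e-04). Its 3 values were close together at 96 hours and spread at 48 hours, with replicate 3 the highest. Myrf, the factor that activates myelin genes, had 11.58, 11.45 and 11.58 at 96 hours, against 11.27, 11.26 and 11.31 at 48 hours and rose by 0.26 (SE 0.08, adjusted p = 0.0378), and Olig1 by 0.22 (SE 0.06, adjusted p = 0.0221). Zfp488 changed by −0.49 (SE 0.14, adjusted p = 0.0175) and Nfib by −0.38 (SE 0.11, adjusted p = 0.0199), while Olig2 (−0.29, adjusted p = 0.0533) and Sox10 (−0.18, adjusted p = 0.0720) did not pass. Nkx6-2 and Zfp536 passed without each single array and without replicate 2, and leaving out 1 T3 array took the adjusted p of the other 4 to 0.0716 to 0.149.

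Cell cycle genes fell together. Of 27 measured genes of DNA replication and S phase 25 fell and 0 rose, with a median of −0.78, and of 33 genes of G2/M and mitosis 29 fell and 0 rose, with a median of −1.02, where 12.1% of all probe sets fell. All 33 mitotic genes had their 3 values at 96 hours below the 3 at 48 hours, as had 26 of the 27 S phase genes. Over all probe sets 14.1% had. The replicative helicase subunit Mcm6 had 8.79, 8.37 and 8.95 at 96 hours, against 10.06, 9.73 and 9.91 at 48 hours. The groups did not overlap, as the rule for the largest falls required, and the change was −1.20 (SE 0.27, adjusted p = 0.00468). Cdk1, the kinase that drives entry into mitosis, had 9.72, 8.65 and 9.30 at 96 hours, against 10.44, 10.24 and 10.44 at 48 hours, a change of −1.15 (SE 0.34, adjusted p = 0.0218). Replicate 2 fell by more than the other two. Uhrf1, which maintains DNA methylation, changed by −1.24 (SE 0.31, adjusted p = 0.00895), the exonuclease Exo1 by −1.23 (SE 0.23, adjusted p = 0.00136), and the replication licensing factor Cdt1 by −1.05 (SE 0.21, adjusted p = 0.00186). In mitosis, Ttk, a kinase of the spindle checkpoint, changed by −1.30 (SE 0.28, adjusted p = 0.00326) on one probe set and by −1.19 (SE 0.35, adjusted p = 0.0228) on another. Kif2c, a microtubule-depolymerizing kinesin, changed by −1.16 (SE 0.29, adjusted p = 0.00913) and the cyclin Ccna2 by −1.16 (SE 0.36, adjusted p = 0.0298). Mki67 (−1.02, adjusted p = 0.0676), Bub1 (−1.09, adjusted p = 0.0582), Ect2 (−1.09, adjusted p = 0.0547) and Aurkb (−0.54, adjusted p = 0.187) did not pass, nor did Fen1 (0.37, adjusted p = 0.0750), the sole S phase gene above 0, or Tyms (−0.47, adjusted p = 0.0584).

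Most of the 15 largest falls were cell cycle genes as well. Shcbp1, a protein of dividing cells, had 7.20, 6.03 and 6.995 at 96 hours, against 8.12, 8.08 and 8.41 at 48 hours, a change of −1.46 (SE 0.38, adjusted p = 0.0114). The kinetochore proteins Knstrn, Cenpt and Ska1 changed by −1.32 (adjusted p = 0.0268), −1.31 (adjusted p = 9.33e-04) and −1.27 (adjusted p = 0.0216), the kinesins Kif20b and Kifc1 by −1.20 (adjusted p = 0.0178) and −1.19 (adjusted p = 0.0100), and the mitotic regulator Pimreg by −1.29 (adjusted p = 0.0280). Of these 15, Lamb1, Igfbp2 and Slc35d3 lay outside the cell cycle. Lamb1, a laminin chain of the extracellular matrix, had 5.37, 4.27 and 4.88 at 96 hours, against 6.72, 5.50 and 6.61 at 48 hours, a change of −1.44 (SE 0.26, adjusted p = 8.57e-04). Igfbp2, which binds insulin-like growth factors, had 9.95, 9.03 and 9.17 at 96 hours, against 10.46, 10.74 and 11.18 at 48 hours, a change of −1.41 (SE 0.30, adjusted p = 0.00322). Slc35d3, of the nucleotide sugar transporter family, changed by −1.38 (SE 0.30, adjusted p = 0.00389).

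The mitotic counts rested more on replicates 2 and 3 than on replicate 1. Leaving out 1 T3 array gave 8 to 28 mitotic genes lower, with 8 and 9 where it was replicate 2 at 96 or 48 hours. Without the whole of replicate 1 they were 32, without replicate 2 they were 0 and without replicate 3 they were 2, while 3 passed without the replicate term. The S phase counts were 22 to 26 without 1 array, 26, 3 and 19 without replicates 1, 2 and 3, and 18 without the replicate term. Of the 15 largest falls 7 passed without each single array, 15 without replicate 1, 5 without replicate 3 and 6 without the replicate term. Lamb1 was the 1 that passed without replicate 2 (adjusted p = 0.0318), and Shcbp1, Knstrn, Pimreg, Ska1, Uhrf1, Kif20b, Kifc1 and Cdkn3 reached adjusted p values of 0.0532 to 0.144 without 1 T3 array.

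**Figure D2:**
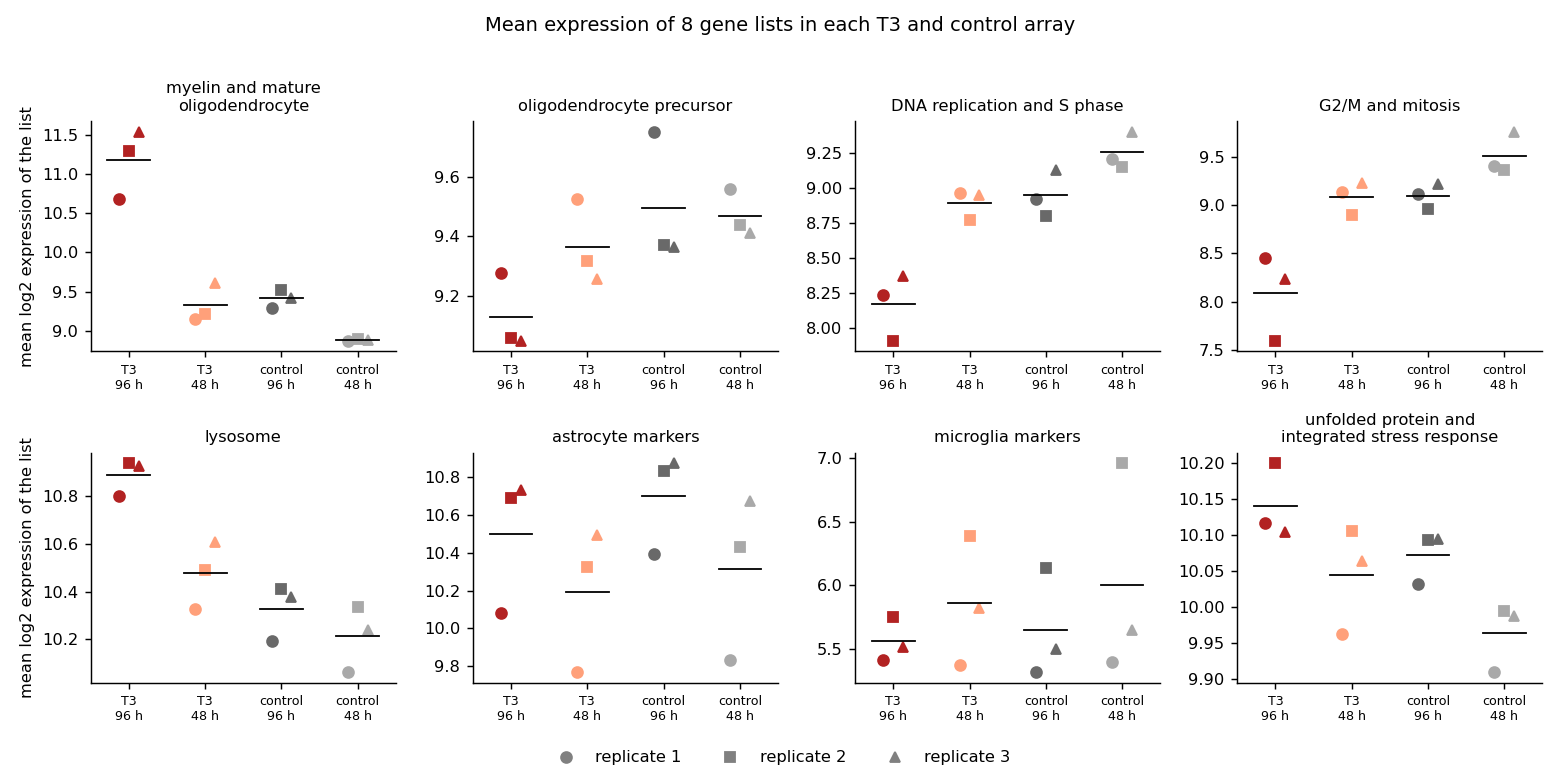
Mean log2 expression of 8 gene lists on each array of T3 96-hour, T3 48-hour, control 96-hour and control 48-hour cultures, with symbols for the replicate and lines for the group means. In T3 cultures the mean of the myelin list was 10.69 to 11.54 at 96 hours and 9.15 to 9.61 at 48 hours, and that of the mitotic list 7.59 to 8.45 at 96 hours and 8.90 to 9.23 at 48 hours.

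Of 7 inhibitors of cyclin-dependent kinases 2 rose and 2 fell. Cdkn1a, an inhibitor induced on cell cycle exit and stress, had 10.14, 10.34 and 10.42 at 96 hours, against 8.73, 9.04 and 9.08 at 48 hours, a change of 1.35 (SE 0.16, adjusted p = 1.89e-05). Its rise was nearly the same in the 3 replicates and passed without replicate 2 (adjusted p = 0.0191). Cdkn1b, of the same family, rose by 0.35 (SE 0.07, adjusted p = 0.00296), while Cdkn1c changed by −0.61 (SE 0.13, adjusted p = 0.00321) and Cdkn2b by −0.45 (SE 0.11, adjusted p = 0.00652). These last 3 passed without each single array but not without replicate 2.

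Signalling genes went both ways. Among 19 genes of ERK feedback and the immediate early response 5 rose and 7 fell. Those that rose were the stress-induced factor Atf3 (1.72, adjusted p = 8.56e-04), the phosphatase Dusp1 (1.36, adjusted p = 0.0176), the AP-1 subunits Fos (0.86, adjusted p = 0.0306) and Junb (0.33, adjusted p = 0.0227), and Ier3 (0.57, adjusted p = 0.0221). Those that fell held targets and feedback inhibitors of receptor tyrosine kinase signalling. Etv5, an ETS factor, had 7.44, 6.89 and 7.26 at 96 hours, against 8.29, 7.90 and 8.29 at 48 hours, a change of −0.96 (SE 0.17, adjusted p = 9.91e-04). The ERK phosphatase Dusp6 changed by −0.77 (SE 0.18, adjusted p = 0.00610), Egr1 by −0.86 (SE 0.30, adjusted p = 0.0497), and the inhibitors Spry4 and Spry1 by −0.50 (adjusted p = 0.0141) and −0.45 (adjusted p = 0.0103). Etv5 passed without replicate 2 (adjusted p = 0.0127), Atf3, Etv5 and Dusp6 without each single array, and the other 7 named here reached 0.0591 to 0.247 without 1 T3 array.

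Of 16 Hes, Id and Notch genes 4 fell and 1 rose, where 12.1% of all probe sets fell and 7.03% rose. Hes5, a Notch target that restrains differentiation, had 7.72, 6.51 and 7.20 at 96 hours, against 8.002, 7.95 and 8.36 at 48 hours, a change of −0.96 (SE 0.25, adjusted p = 0.0112), and Hes1 changed by −0.44 (SE 0.14, adjusted p = 0.0342). The ligands Jag1 and Jag2 changed by −0.65 (adjusted p = 0.00647) and −0.65 (adjusted p = 0.00727), and the receptor Notch3 by 0.23 (adjusted p = 0.0124), while the 4 Id genes, inhibitors of basic helix-loop-helix factors, had changes of 0.08 to 0.33 that did not pass. Among 14 Wnt and BMP feedback genes 2 fell and 1 rose, shares close to those of all probe sets. Smad7, an inhibitory Smad, rose by 0.52 (adjusted p = 0.0483) and the ligands Bmp2 and Bmp7 changed by −0.60 (adjusted p = 0.0141) and −0.46 (adjusted p = 0.0300). Jag1 alone of these 8 passed without each single array, and the other 7 reached 0.0668 to 0.193 without 1 T3 array.

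Lysosomal genes rose, with 9 of 14 higher, 0 lower and a median of 0.45. Ctsl, a cysteine protease, had 13.20, 13.38 and 13.50 at 96 hours, against 11.07, 11.79 and 12.64 at 48 hours. At 48 hours it differed widely between replicates and at 96 hours little, and the change was 1.52 (SE 0.25, adjusted p = 3.93e-04). The membrane proteins Lamp1 and Lamp2 rose by 0.60 (SE 0.07, adjusted p = 1.57e-05) and 0.62 (SE 0.06, adjusted p = 4.19e-06), Galc, which degrades the myelin lipid galactosylceramide, by 0.59 (SE 0.12, adjusted p = 0.00189), and Hexa, a hexosaminidase, by 0.56 (SE 0.14, adjusted p = 0.00771). All 5 passed without each single array, and Lamp1 and Lamp2 without replicate 2. Over the list 4 genes passed without the replicate term and 3 without replicate 2.

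Lipid synthesis changed in a few enzymes, where 7.03% of all probe sets rose and 12.1% fell. Of 12 genes of galactolipid and sphingolipid synthesis 3 rose and 1 fell. Elovl1, which elongates very long chain fatty acids, had 11.90, 11.80 and 11.85 at 96 hours, against 10.80, 10.76 and 11.19 at 48 hours, a change of 0.93 (SE 0.14, adjusted p = 2.19e-04), and Cers2, the matching ceramide synthase, had 11.13, 11.13 and 11.13 at 96 hours, against 10.48, 10.41 and 10.57 at 48 hours, a change of 0.64 (SE 0.12, adjusted p = 8.85e-04). Degs1 rose by 0.45 (adjusted p = 0.00650) and Gal3st1, which makes sulfatide, changed by −0.33 (adjusted p = 0.0469). Gal3st1 did not pass when each array was centred on its median, with 0 genes of the list then lower. Ugt8, which makes galactosylceramide, had a change of 0.25 (adjusted p = 0.110) that did not pass. Of 18 cholesterol synthesis genes 2 rose and 0 fell (median −0.01), Ebp by 0.61 (adjusted p = 0.0302) and Sc5d by 0.41 (adjusted p = 0.00481), both in late steps, while Sqle (0.09, adjusted p = 0.542), Cyp51 (0.13, adjusted p = 0.507) and Fdft1 (−0.16, adjusted p = 0.442) did not pass. Of 16 other SREBP targets 0 passed by limma in either direction, while 3 were lower at an unadjusted p under 0.05, a limit at which 19.0% of all probe sets were lower, and 1 passed when arrays were centred. The desaturases Scd and Fads2 had the largest changes there, with −0.50 (adjusted p = 0.135) and −0.44 (adjusted p = 0.0524). Of 9 efflux and LXR genes Npc2, a lysosomal sterol carrier, rose by 0.49 (adjusted p = 0.0287). Leaving out 1 T3 array took Ebp, Npc2 and Gal3st1 to adjusted p values of 0.120 to 0.157.

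In the unfolded protein and integrated stress response 5 of 18 genes rose and 1 fell, where 7.03% of all probe sets rose and 12.1% fell. Ddit3, a factor of the stress response, had 8.502, 8.64 and 8.64 at 96 hours, against 7.55, 7.93 and 7.998 at 48 hours, a change of 0.77 (SE 0.08, adjusted p = 1.24e-05), and Dnajb9, a chaperone of the endoplasmic reticulum, rose by 0.63 (SE 0.06, adjusted p = 4.76e-06). Chac1 rose by 1.01 (adjusted p = 0.0117) and Trib3 by 0.54 (adjusted p = 0.0179), Herpud1 by 0.31 (adjusted p = 0.0164), and Creld2 changed by −0.48 (adjusted p = 0.00996). The central chaperone Hspa5 (−0.12, adjusted p = 0.669) and the factor Atf4 (0.11, adjusted p = 0.565) did not pass. Ddit3 and Dnajb9 passed without replicate 2, and the other 4 reached 0.0628 to 0.0916 without 1 T3 array. Of 14 contractile genes and targets of serum response factor 6 fell and 0 rose (median −0.31). Myl9, a myosin light chain, had 6.84, 7.03 and 6.84 at 96 hours, against 7.75, 7.64 and 7.42 at 48 hours, a change of −0.70 (SE 0.12, adjusted p = 6.13e-04), and the actin-binding Tagln changed by −0.78 (SE 0.24, adjusted p = 0.0285), Cnn2 by −0.74 (SE 0.19, adjusted p = 0.0115) and Tpm1 by −0.47 (SE 0.10, adjusted p = 0.00431). Myl9 passed without replicate 2 (adjusted p = 0.0425), and Tagln and Cnn2 reached 0.0681 to 0.143 without 1 T3 array. Of 16 genes of glycolysis and the hypoxia response 1 rose, the vasoactive peptide Adm, with 7.48, 8.001 and 7.28 at 96 hours, against 5.54, 5.98 and 6.35 at 48 hours and a change of 1.63 (SE 0.19, adjusted p = 1.75e-05). Of 14 interferon-stimulated genes 1, Stat2, rose (0.31, adjusted p = 0.00739, up to 0.0542 without 1 T3 array). In both of these last lists the share that rose was close to the 7.03% of all probe sets.

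**Figure D3:**
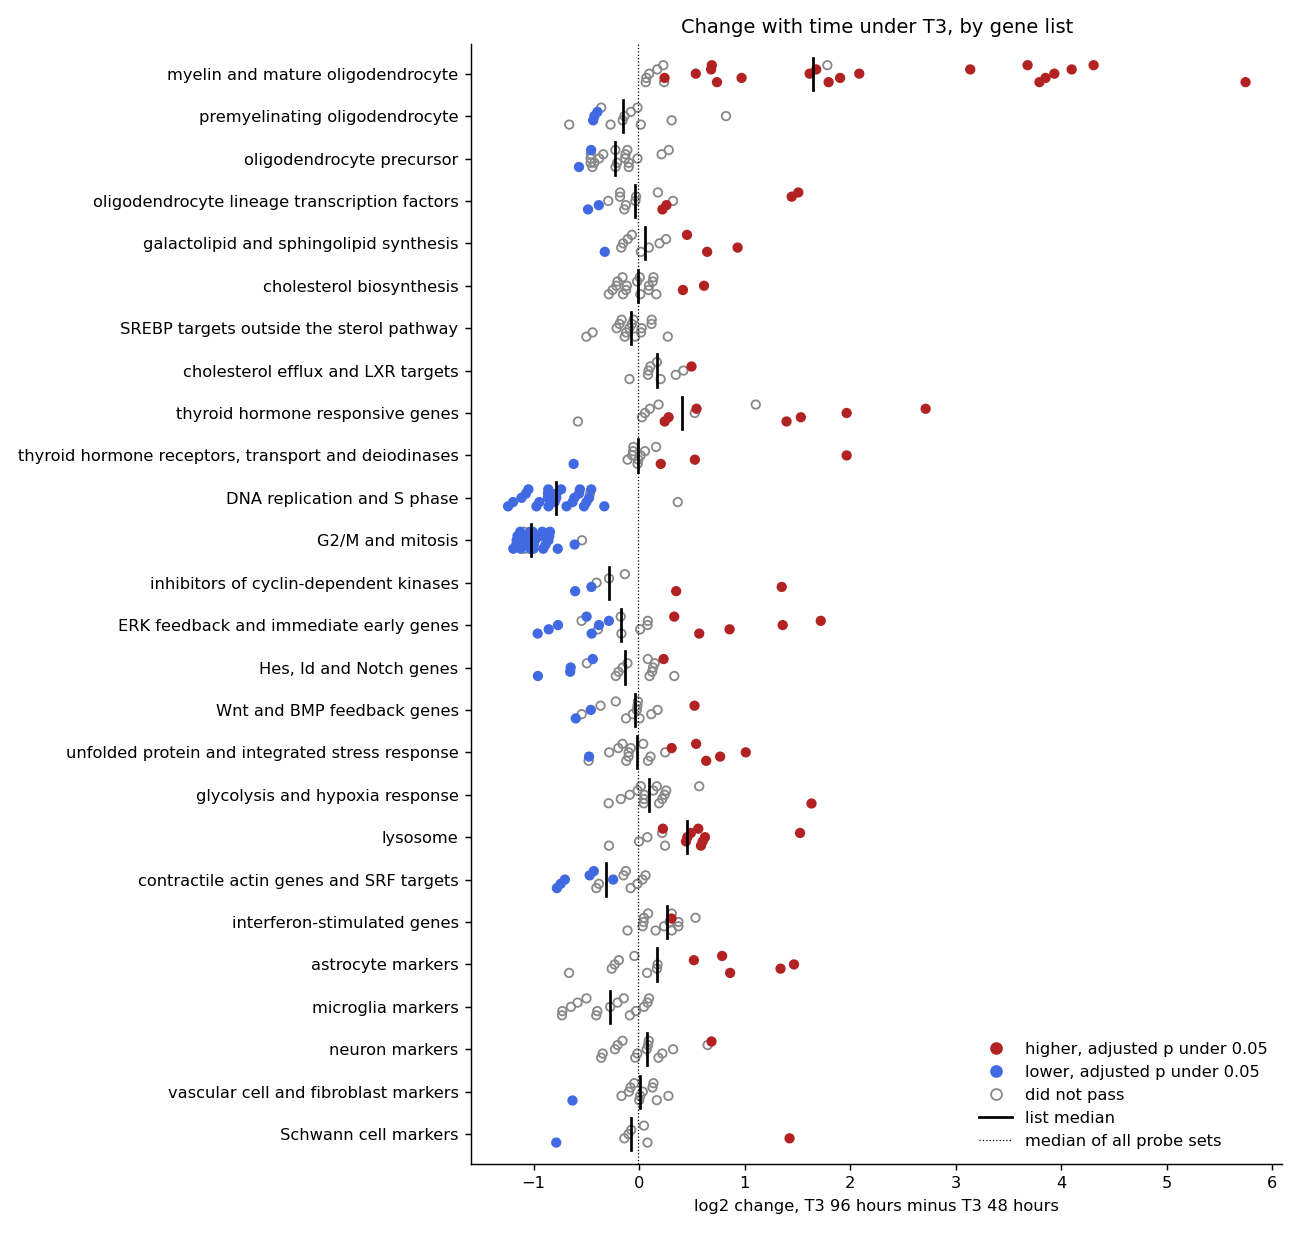
Log2 change of each measured gene in T3 cultures, 96 minus 48 hours, by gene list, with filled points for an adjusted p under 0.05 (red higher, blue lower), open points for genes that did not pass and bars for the list medians. The myelin list had a median of 1.65 and the mitotic list one of −1.02, against −0.01 over all probe sets (dotted line).

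Lists of markers of other cell types had medians between −0.28 and 0.17. Of 13 astrocyte markers 5 rose and 0 fell (median 0.17). S100b, a calcium-binding protein, had 10.98, 12.52 and 12.46 at 96 hours, against 9.71, 10.90 and 10.95 at 48 hours, a change of 1.47 (SE 0.15, adjusted p = 5.17e-06), the glutamate transporter Slc1a2 changed by 1.34 (SE 0.24, adjusted p = 0.00103), glutamine synthetase Glul by 0.86 (SE 0.13, adjusted p = 3.19e-04), the connexin Gja1 by 0.79 (SE 0.14, adjusted p = 8.79e-04) and the water channel Aqp4 by 0.52 (SE 0.10, adjusted p = 0.00114). S100b and Glul are known from oligodendrocytes as well. Gfap, at 0.17 (adjusted p = 0.0524), and Aldh1l1, at −0.66 (adjusted p = 0.0515), did not pass. Control cultures, which share no arrays with the T3 cultures, had 5 astrocyte markers higher and a median of 0.30. The mean level of the list was 10.08 to 10.73 at 96 hours and 9.77 to 10.49 at 48 hours in T3 cultures, and replicate 1 was the lowest at both times. All 5 rises passed without each single array and S100b passed without replicate 2, and 2 genes passed without the replicate term.

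Of 15 microglia markers 0 passed by limma in either direction, with a median of −0.28. At an unadjusted p under 0.05, 2 were lower, against 19.0% of all probe sets. The mean of the list was 5.41, 5.75 and 5.51 at 96 hours and 5.37, 6.39 and 5.82 at 48 hours, so replicate 2 at 48 hours stood above the rest, and it did in control as well, with 6.96 at 48 hours. Tyrobp had 4.55, 5.04 and 4.40 at 96 hours, against 4.45, 6.33 and 5.40 at 48 hours, a change of −0.73 (adjusted p = 0.185). Of 15 neuron markers 1, the neurofilament Nefm, rose (0.68, adjusted p = 0.00184), while Rbfox3 (−0.04, adjusted p = 0.855) and Snap25 (0.18, adjusted p = 0.402) did not pass, and of 12 vascular and fibroblast markers 1, the VEGF receptor Kdr, fell (−0.64, adjusted p = 0.0307). Of 7 Schwann cell markers Ngfr, a neurotrophin receptor, rose by 1.42 (adjusted p = 0.0491) and Gap43, a protein of growing processes, changed by −0.79 (adjusted p = 0.0180). Kdr, Ngfr and Gap43 reached 0.103 to 0.177 without 1 T3 array. These counts stand beside 7.03% of all probe sets that rose and 12.1% that fell. The part of these cells in the changes above was not tested.

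Hprt1, a housekeeping gene often used as a reference, had 9.35, 9.30 and 9.21 at 96 hours, against 9.60, 9.71 and 9.53 at 48 hours. The groups did not overlap, with a small fall of −0.33 (SE 0.08, adjusted p = 0.00996), and without replicate 2 at 96 or 48 hours the adjusted p was up to 0.0560.

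The change with time in T3 cultures was set against that in control cultures to ask which part exceeded the change without added T3. Across all probe sets, which are not independent, both changes correlated with r = 0.597. In control 731 probe sets were higher (2.35%) and 267 lower (0.860%) at an adjusted p under 0.05. The difference of both changes, tested in the same fit, was called for 211 probe sets more positive with T3 (0.680%) and 29 more negative (0.0934%), or 252 (0.812%) and 44 (0.142%) with no fold limit. Without replicate 2 both counts were 0 by limma, with 362 and 164 at an unadjusted p under 0.05 and the same fold, without the replicate term 15 and 0, and with the replicate as a random effect 120 and 4, so the calls below rest on replicate 2 and on the block. Of the 26 myelin genes 7 had a larger rise with T3 than in control and 0 a smaller one, and the control median was 0.15.

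Among called probe sets with 1 gene symbol Fgl2 had the largest fitted difference, although its values at 48 hours and in control were not shown to exceed background. It had 6.96, 7.57 and 7.06 at 96 hours, against 3.41, 3.55 and 3.85 at 48 hours in T3 cultures, and 3.49, 3.99 and 3.67 at 96 hours, against 3.16, 3.31 and 3.54 at 48 hours in control. The T3 arrays at 96 hours stood alone, and the difference of the changes was 3.22 (SE 0.40, adjusted p = 0.00118), 95% interval 2.38 to 4.05. This was the dimmest probe set of Fgl2 and the one with the largest difference. Its other probe sets differed by less, by 1.91 (adjusted p = 0.0234), 1.67 (adjusted p = 0.0354) and 0.73 (adjusted p = 0.307). Car2 had 8.12, 7.90 and 7.95 at 96 hours, against 7.19, 7.30 and 7.38 at 48 hours in control, and its difference was 2.98 (SE 0.49, adjusted p = 0.00791). Ppp1r14a differed by 2.98 (SE 0.53, adjusted p = 0.0112) and Ermn by 3.14 (SE 0.69, adjusted p = 0.0359). Syt4, a synaptotagmin of vesicle traffic, had 9.69, 10.04 and 9.44 at 96 hours, against 7.07, 6.73 and 7.12 at 48 hours with T3 and 6.37, 6.67 and 7.46 at 96 hours, against 6.72, 6.63 and 6.98 at 48 hours in control, a difference of 2.70 (SE 0.49, adjusted p = 0.0127). Rab3c, a GTPase of vesicles, differed by 2.46 (adjusted p = 0.0354), the scaffold Nherf2 by 2.48 (adjusted p = 0.0301), Plekhh1 by 2.65 (adjusted p = 0.00884), Cdc42ep2 by 2.51 (adjusted p = 0.0106) and the unconventional myosin Myo1d by 2.47 (adjusted p = 0.0328).

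Further differences from control came from Nkx6-2 (1.16, adjusted p = 0.0217) among the transcription factors, Elovl1 (0.95, adjusted p = 0.0281) and Cers2 (0.71, adjusted p = 0.0452) among the lipid enzymes, and Galc (0.72, adjusted p = 0.0441) and Lamp1 (0.41, adjusted p = 0.0499) among the lysosomal genes. Of the 10 called genes with the largest differences, those from Fgl2 to Myo1d above, 0 passed the test against control at 48 hours. The difference between T3 and control was −0.26 to 0.98 at 48 hours, with limma adjusted p values of 0.154 to 0.996, and 2.47 to 3.96 at 96 hours, on arrays shared with the changes above. Choosing genes by the size of the difference of the changes itself favours a small gap at 48 hours and a large one at 96 hours. These values are thus no separate evidence on when the gap arose. In the fits that left out 1 T3 or control array, the difference of the changes stayed past the limit for 4 of the 10, Fgl2, Car2, Plekhh1 and Cdc42ep2, and 1, Fgl2, passed without the replicate term (adjusted p = 0.0188).

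**Figure D4:**
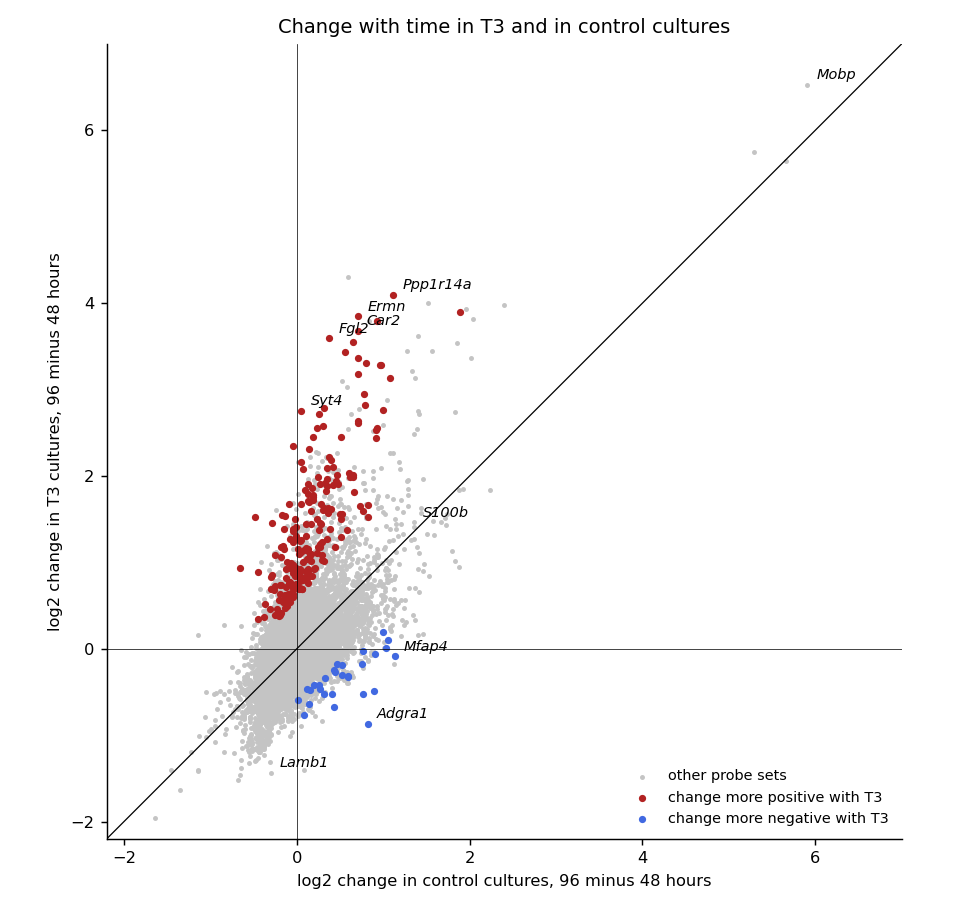
Log2 change from 48 to 96 hours in T3 cultures (vertical axis) against that in control cultures (horizontal axis) for 31042 probe sets. The 211 called with a more positive change with T3 are red and the 29 with a more negative one blue; Fgl2 lay at 3.59 with T3 and 0.38 in control, and Mobp near the diagonal at 6.53 and 5.91.

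Mobp, the largest rise with T3, rose in control too. It had 9.02, 10.63 and 10.56 at 96 hours, against 4.41, 3.40 and 4.68 at 48 hours in control (adjusted p = 7.62e-05), and the difference of the changes was 0.62 (95% interval −1.17 to 2.41, adjusted p = 0.822). The T3 level lay above control by 2.75 at 96 hours (adjusted p = 0.00215) and by 2.13 at 48 hours (adjusted p = 0.0497), on the same arrays. In Mal (3.71, adjusted p = 0.145), Opalin (2.95, adjusted p = 0.193) and Gpr37 (1.97, adjusted p = 0.0803) the difference did not pass either. Among cell cycle genes 0 of 27 S phase genes and 0 of 33 mitotic genes differed in their change by limma. At an unadjusted p under 0.05, 16 S phase genes had a more negative change with T3 and 1 a more positive one, and 0 mitotic genes had either, where 7.12% of all probe sets had a more negative change and 5.84% a more positive one. Their control medians were −0.31 and −0.41, and for Cdk1 the difference was −0.71 (95% interval −1.72 to 0.29, adjusted p = 0.564) and for Mcm6 −0.76 (−1.57 to 0.04, adjusted p = 0.414).

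Among the 10 genes named for a more negative change under T3, 8 rose in control, and 2, Adgra1 and Mfap2, fell with T3. Mfap4, a microfibril-associated protein, had 5.46, 6.58 and 7.60 at 96 hours, against 5.81, 6.53 and 7.56 at 48 hours with T3 and 6.83, 8.19 and 9.39 at 96 hours, against 6.03, 6.83 and 8.15 at 48 hours in control. The T3 groups overlapped, and the difference of the changes was −1.22 (SE 0.27, adjusted p = 0.0402). Ndp, a ligand of the Wnt pathway, had changes of 0.10 with T3 and 1.06 in control, a difference of −0.95 (SE 0.17, adjusted p = 0.0130). The membrane metalloproteinase Mmp14, the immunoglobulin superfamily protein Igdcc4, the melanocortin receptor Mc4r and the carboxypeptidase inhibitor Lxn differed by −0.95 (adjusted p = 0.0454), −1.03 (adjusted p = 0.0486), −0.93 (adjusted p = 0.0492) and −0.92 (adjusted p = 0.0435). Adgra1, an adhesion receptor, had 6.18, 6.30 and 6.36 at 96 hours, against 6.62, 7.04 and 7.78 at 48 hours with T3 and 7.06, 7.89 and 8.41 at 96 hours, against 6.18, 6.96 and 7.75 at 48 hours in control, a difference of −1.69 (SE 0.34, adjusted p = 0.0217). Mfap2, another microfibril protein, differed by −0.94 (adjusted p = 0.0271), and the carboxypeptidase-like Cpxm1 by −1.38 (adjusted p = 0.0184). Of the 10 genes, 1, the fatty acid transporter Slc27a3 (−0.91, adjusted p = 0.00951), passed in each fit without 1 array, and 0 passed without the replicate term or without replicate 2. Dimmer second probe sets did not pass for Slc27a3 (−0.09, adjusted p = 0.844), Igdcc4 (−0.31, adjusted p = 0.379), Mmp14 (−0.55, adjusted p = 0.171) and Ndp (−0.83, adjusted p = 0.0653).

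Few changes with time differed between T3 and quetiapine. The difference was called for 4 probe sets more positive with T3 (0.0129%) and 2 more negative (0.00644%). Fgl2 had 3.37, 3.64 and 4.22 at 96 hours, against 3.15, 3.33 and 3.45 at 48 hours with quetiapine, so its rise of 3.59 with T3 stood against 0.43, a difference of 3.16 (SE 0.40, adjusted p = 0.00413). Il6st, the signalling subunit of receptors for the IL-6 family, rose by 0.94 (adjusted p = 3.68e-05) with T3, against a change of −0.10 (adjusted p = 0.645) with quetiapine, a difference of 1.04 (adjusted p = 0.0287). Slco3a1, an organic anion transporter, rose by 1.15 (adjusted p = 1.69e-06) with T3, against a change of 0.22 (adjusted p = 0.202) with quetiapine, a difference of 0.93 (adjusted p = 0.0287). In the other direction Cyp3a23-3a1, a drug-metabolizing cytochrome, differed by −1.69 (adjusted p = 0.00413), and Stard13 by −1.14 (adjusted p = 0.0287). Stard13 had 9.08, 8.82 and 8.92 at 96 hours, against 9.11, 8.71 and 8.92 at 48 hours with T3, level between the times, and 8.19, 7.75 and 8.05 at 96 hours, against 6.88, 6.31 and 7.28 at 48 hours with quetiapine. Fgl2 and Cyp3a23-3a1 passed in each fit without 1 array, and 0 of the 5 passed without replicate 2 by limma.

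Against T3 plus quetiapine 13 probe sets had a more positive change with T3 alone (0.0419%) and 46 a more negative one (0.148%). Cyp26b1, which degrades retinoic acid, had 6.60, 5.49 and 5.15 at 96 hours, against 5.27, 4.98 and 4.75 at 48 hours with T3 alone, and 9.21, 7.82 and 7.69 at 96 hours, against 5.03, 4.60 and 4.74 at 48 hours with both compounds. The T3 groups overlapped and those with both compounds lay far apart, a difference of −2.70 (SE 0.39, adjusted p = 0.00625). Creb5, a transcription factor of the CREB family, rose by 1.01 with T3 and 2.43 with both, a difference of −1.42 (SE 0.15, adjusted p = 2.26e-04), which passed without replicate 2 but not without replicate 3. Arhgap28 rose by 1.99 and 3.28, a difference of −1.30 (adjusted p = 0.0202), and Sertm1 and Cib2 differed by −1.76 (adjusted p = 0.0326) and −1.48 (adjusted p = 0.0124). Vim, an intermediate filament of immature cells and astrocytes, had changes of 0.17 (adjusted p = 0.427) with T3 and −1.01 (adjusted p = 1.08e-05) with both, a difference of 1.18 (adjusted p = 0.0124). Cd24, a surface glycoprotein, and Nqo1, a quinone reductase, rose with T3 by 0.98 (adjusted p = 3.76e-04) and 1.22 (adjusted p = 7.27e-05), both with overlapping groups, and differed by 1.17 (adjusted p = 0.0326) and 1.13 (adjusted p = 0.0485). Tmem47 and S100a13 differed by 0.99 (adjusted p = 0.00625) and 0.93 (adjusted p = 0.0326). Of these 10, Creb5 passed without replicate 2 and 3 passed in each fit without 1 array, Tmem47, Cyp26b1 and Creb5. Without replicate 3, 0 of the 10 passed by limma, and the calls over all probe sets were 0 more positive and 2 more negative, with 444 and 409 at an unadjusted p under 0.05 and the same fold.

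**Figure D5:**
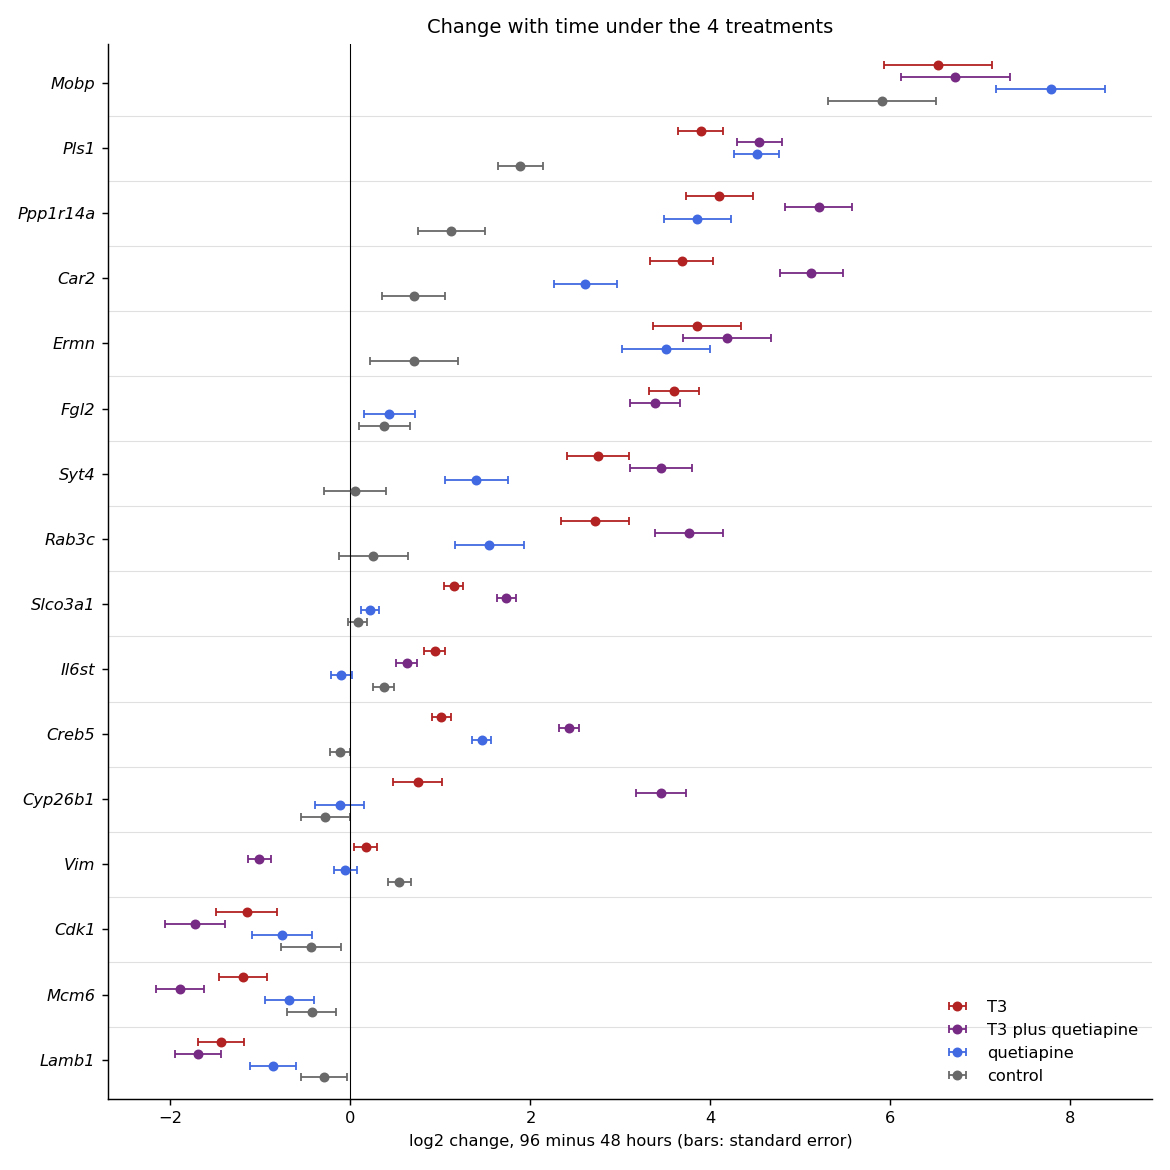
Log2 change from 48 to 96 hours (points, with standard errors from the fit) of 16 genes in cultures with T3, T3 plus quetiapine, quetiapine and control. The change of Fgl2 was 3.59 with T3 and 0.43 with quetiapine, and that of Cyp26b1 0.75 with T3 and 3.45 with both compounds.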

How the data were processed

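RNA of 24 cultures, 3 for each of 8 groups, was hybridised to a 1-colour Affymetrix rat array. The authors deposited log2 expression values after RMA, which corrects background, normalizes between arrays and summarizes probes into probe sets. Tool versions were not stated for these steps. Precision is limited by how few arrays there were.

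Of 31099 probe sets, 57 array controls were left out and 31042 tested, of which 20826 had 1 gene symbol (14217 genes), 436 several and 9780 none in the platform annotation. Limma 3.58.1 (R 4.3.3) was fitted to all 24 arrays with a mean for each group and the replicate number as a block, leaving 14 residual degrees of freedom. All adjusted p values are limma's, by Benjamini-Hochberg over all probe sets. A call needed an adjusted p under 0.05 and a fold over 1.5, and single genes and list members were read at an adjusted p under 0.05 alone. The study's methods name no replicate term. The series' description says that each biological replicate gave every condition. Deviations from the group means correlated between the same-numbered T3 arrays at r = 0.452, 0.476 and 0.572, against −0.406 to 0.0777 between different numbers. Over all groups these ranges overlapped, at 0.0587 to 0.777 for the same number and −0.681 to 0.243 for different numbers. Deviations within a group sum to 0, which draws the correlations between different numbers down. Nothing beyond that description gives the source of the replicates. With the block, p values measure the spread of the arrays left after the group and replicate terms, not the spread between replicates.

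A gene was read on its brightest probe set on average, except in the largest rises, falls and differences, which were read on the probe set that led. Named were the 15 largest rises and falls whose groups did not overlap, up to 10 or 5 differences each way between treatments, up to 5 members each way of 26 lists (407 of 445 genes had a probe set), and genes the study names. Other list members named were chosen after their values were seen. The members and lists were chosen with earlier results of these data known. The script was tested on simulated data. Alternatives were other scalings, filters, fold limits, the block, smaller fits and leaving out arrays or replicates.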

Additional observations from a re-analysis of the deposited data

Results flagged for a closer look

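The change from 48 to 96 hours differed between T3 and another treatment, by the test of the difference in the limma fit, for 46 combinations of a named gene and a treatment. Values below are differences on the log2 scale, the change with T3 minus that with the other treatment, and all passed an adjusted p under 0.05. Each is for the probe set on which the gene was named, and other probe sets of a gene, as for Fgl2, can differ by less. No explanation of them was tested.

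Against control the change was more positive with T3 for 21 genes. Fgl2 differed by 3.22, Ermn by 3.14, Ppp1r14a by 2.98, Car2 by 2.98, Syt4 by 2.70, Plekhh1 by 2.65, Cdc42ep2 by 2.51, Nherf2 by 2.48, Myo1d by 2.47, Rab3c by 2.46, Pls1 by 2.00, Arhgap28 by 1.74, Adm by 1.32, Nkx6-2 by 1.16, Creb5 by 1.12, Slco3a1 by 1.07, Elovl1 by 0.95, Galc by 0.72, Cers2 by 0.71, Lamp1 by 0.41 and Dnajb9 by 0.40. It was more negative for 10. Adgra1 differed by −1.69, Cpxm1 by −1.38, Mfap4 by −1.22, Igdcc4 by −1.03, Mmp14 by −0.95, Ndp by −0.95, Mfap2 by −0.94, Mc4r by −0.93, Lxn by −0.92 and Slc27a3 by −0.91.

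Against quetiapine the change was more positive with T3 for 3 genes and more negative for 2. Fgl2 differed by 3.16, Il6st by 1.04, Slco3a1 by 0.93, Cyp3a23-3a1 by −1.69 and Stard13 by −1.14. Against T3 plus quetiapine it was more positive with T3 alone for 5 genes and more negative for 5. Vim differed by 1.18, Cd24 by 1.17, Nqo1 by 1.13, Tmem47 by 0.99, S100a13 by 0.93, Cyp26b1 by −2.70, Sertm1 by −1.76, Cib2 by −1.48, Creb5 by −1.42 and Arhgap28 by −1.30.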

How the results depend on the processing

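Limits of these results lie in the 3 replicates per group, the block and the lack of a measure of depth on arrays. Changes of genes near the background or the top of the signal range cannot be read at their full size.

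Without the replicate block 533 probe sets were called higher and 271 lower in T3 cultures at 96 against 48 hours, in place of 939 and 583. With no fold limit they were 2182 and 3744, with a fold limit of 2 they were 432 and 92, and in the 6 T3 arrays alone without the block 341 and 151. Leaving out an array or a replicate gave 291 to 1040 higher and 100 to 735 lower, lowest without replicate 2. The other 6 settings, which took the block as a random effect, centred the arrays, normalized quantiles again, fitted a variance trend, kept probe sets above the median level or used the 6 T3 arrays with the block, kept both counts within 1.5 times.

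For the difference from control, 211 more positive and 29 more negative calls became 15 and 0 without the block, 120 and 4 with a random block, 116 and 6 with a fold limit of 2 and 369 and 79 in the 12 T3 and control arrays, and 44 were more negative with no fold limit. Leaving out an array or a replicate gave 0 to 315 and 0 to 171. For the difference from quetiapine, 4 and 2 calls became 0 and 1 without the block, with 2 more positive at a fold limit of 2 and 1 more negative among probe sets above the median level, and 0 to 70 and 0 to 11 in fits that left out an array or a replicate. For the difference from T3 plus quetiapine, 13 and 46 calls became 0 and 8 without the block, 3 and 25 with a random block and 4 and 22 with a fold limit of 2, and 0 to 339 and 2 to 431 in fits that left out an array or a replicate. The causes were not tested.

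Of the 52 counts over the gene lists, 27 moved by over 1.5 times without the block, 5 with centred arrays and 8 with the mean of all probe sets of a gene. The 6 changes that did not pass and turned sign in T3 cultures when an array or a replicate was left out ranged from −0.15 to 0.048 for Mfap4, −0.10 to 0.088 for Igdcc4, −0.11 to 0.042 for Mmp14, −0.034 to 0.10 for Stard13, −0.19 to 0.19 for Cib2 and −0.15 to 0.19 for Nt5e.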
